A study of Mus musculus with 12 samples.

Results

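The leukocyte integrins described here are 10 genes: Itgax, Itgam, Itgal and Itgb2 (the beta2 group), Itga4, Itgb7 and Itgae (the alpha4 and beta7 group), Itga6 and Itgb1, and Itgb3. They were taken as all probe sets whose platform annotation gives 1 of these symbols and no other, which found 23 probe sets among 45037, and all 10 genes among 18193. Integrins are paired surface receptors, each made of an alpha and a beta chain, with which blood cells hold on to matrix and to other cells. The beta2 integrins bind ICAM proteins and complement fragments, alpha4 chains bind VCAM-1 and the gut addressin MAdCAM-1, and alpha6 with beta1 binds laminin. Signals inside the cell switch integrins on through talin and kindlin, and marrow progenitors use alpha4 with beta1 to stay attached to stroma.

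The data are 12 one-colour Affymetrix arrays, 3 for each of 4 groups, of pre-pro-B cells from mice. All cells were Ebf1-/- progenitors of strain C57BL/6, so the controls too lack a working Ebf1 gene. The groups were cells given EBF1 by the Mig-EBF1 retrovirus with their controls (MigR1, GFP alone), which form set 1, and cells given PAX5 by the Mig-PAX5 retrovirus with their controls, which form set 2. Expression from a retrovirus need not match that of the native gene, and the cells grew on OP9 stroma with SCF, Flt3 ligand and IL-7 before GFP-positive cells were sorted 2 days after infection. The labels used here do not state the age or number of animals.

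Some arrays were too alike to count apart. The log2 differences between same-numbered control arrays of both sets had a robust SD of 0.0392 to 0.0942, where control arrays of unequal number gave 0.287 to 0.374. PAX5 arrays 2 and 3 gave 0.0774, and the remaining pairs inside groups 0.211 to 0.359. They were counted as the same samples, which leaves 3 EBF1, 2 PAX5 and 3 control samples. Values of the 2 control sets differed gene by gene all the same: Itgb2 read 0.81 higher in log2 in control set 2 than in control set 1, and 1948 of 18193 genes differed by more than 0.5. Each factor is therefore set against the controls of its own set, and no deposited level is compared across sets. The difference between the factors, and the order of fitted levels, compare EBF1 with PAX5 samples across sets after this offset was removed. The offset was treated as known there, so the standard errors of the difference leave out its error. The p-values reflect only the spread among these samples, which may be technical, and precision is limited by how few arrays there are. Flt3, a progenitor cytokine receptor, was bright on every array, at 1028 to 1709 with EBF1 and 1823 to 2927 in control set 1, while Ms4a1, a B cell surface gene, read 3029 to 7028 with EBF1 and 14.5 to 22.4 in control set 1. The transduced genes were read as a check of the labels. The brighter Pax5 probe set read 1849, 891 and 932 with PAX5, against 12.8, 8.97 and 7.98 in control set 2, and the dimmer one 54.1 to 60.2 with PAX5, against 54.6 to 74.2 in control set 2. The brightest of 5 Ebf1 probe sets read 1886, 2477 and 1917 with EBF1, against 2027, 2173 and 2148 in control set 1 (log2 change -0.03, adjusted p = 0.98 by limma), and none of the other 4 separated the groups. Ebf1 transcript was thus bright in the Ebf1-/- controls and not higher on the arrays labelled EBF1, and where these probes lie relative to the disrupted part of the gene is not stated in the labels. Directions given for EBF1 rest on the labels and on the B cell markers, of which 6 of 14 measured were called higher with EBF1 and 0 lower.

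Upstream sequence is shown for the neighbours Itgax and Itgam, whose responses to the 2 factors are described side by side, and for Itga4 and Itgb7, whose chains pair with each other. Itgam and Itgax are adjacent genes on chromosome 7. Each line gives the 250 bases before the gene's start in RefSeq (GRCm38.p6), 5′ to 3′ on the gene's strand: chr7:128129300-128129549 (+) for Itgax, chr7:128062390-128062639 (+) for Itgam, chr2:79255176-79255425 (+) for Itga4 and chr15:102231936-102232185 (-) for Itgb7. Capitals mark a match to 1 of 3 short motifs searched on both strands.
Itgax: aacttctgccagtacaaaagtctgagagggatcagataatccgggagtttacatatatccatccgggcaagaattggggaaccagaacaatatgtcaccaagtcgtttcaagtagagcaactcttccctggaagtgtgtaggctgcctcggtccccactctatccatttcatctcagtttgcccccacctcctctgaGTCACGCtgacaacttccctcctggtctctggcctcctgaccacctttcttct
Itgam: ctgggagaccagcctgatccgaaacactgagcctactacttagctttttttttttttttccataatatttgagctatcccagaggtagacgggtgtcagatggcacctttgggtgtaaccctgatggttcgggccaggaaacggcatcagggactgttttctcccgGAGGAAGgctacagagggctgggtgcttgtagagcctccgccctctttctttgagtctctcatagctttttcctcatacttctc
Itga4: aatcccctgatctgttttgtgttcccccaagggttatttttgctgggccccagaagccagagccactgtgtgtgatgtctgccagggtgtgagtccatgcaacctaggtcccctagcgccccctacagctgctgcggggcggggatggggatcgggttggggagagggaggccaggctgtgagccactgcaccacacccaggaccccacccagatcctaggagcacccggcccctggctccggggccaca
Itgb7: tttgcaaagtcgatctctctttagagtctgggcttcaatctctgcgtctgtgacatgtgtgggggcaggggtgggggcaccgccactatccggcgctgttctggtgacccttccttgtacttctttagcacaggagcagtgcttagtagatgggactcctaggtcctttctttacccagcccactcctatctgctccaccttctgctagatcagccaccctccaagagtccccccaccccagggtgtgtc
The table of promoters held 5 of the 10 genes, Itgb1 being the other. The capitals of Itgax are the reverse complement of GCGTGAC, a core of the PAX5 motif, and begin 53 bases before the start. This motif stood in 1 of the 5 windows and in 1.78% of 32851 windows of that length. Those of Itgam are GAGGAAG, an Ets family core, 84 bases before the start, found in 1 of the 5 and in 10.6% of all windows. The EBF1 core, TCCC and GGGA with any 2 bases between them, was in 0 of the 5 and in 0.779% of all windows. The matches did not overlap, and a match describes letters in a window, not binding.

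Itgax and Itga6 rose with PAX5, and no integrin gene of the 10 passed limma's test with EBF1. With PAX5, 2 of 10 were higher and 0 lower at a Benjamini-Hochberg adjusted p under 0.05 over all genes, against 0.874% of 18193 genes called in either direction and 0.797% called higher, and 3 of 10 had an unadjusted p under 0.05 (9.45% of all genes). With EBF1 0 of 10 passed (0.22% of all genes), and 5 of 10 had an unadjusted p under 0.05 (11.6% of all genes), all of them lower with EBF1. The median log2 change of the 10 genes was -0.62 with EBF1 and 0.17 with PAX5, beside 0.01 and -0.01 over all genes. Changes are differences in log2(intensity + 16), so those of dim genes are understated. Both comparisons share their controls, since same-numbered control arrays count as 1 sample.

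**Figure D1:**
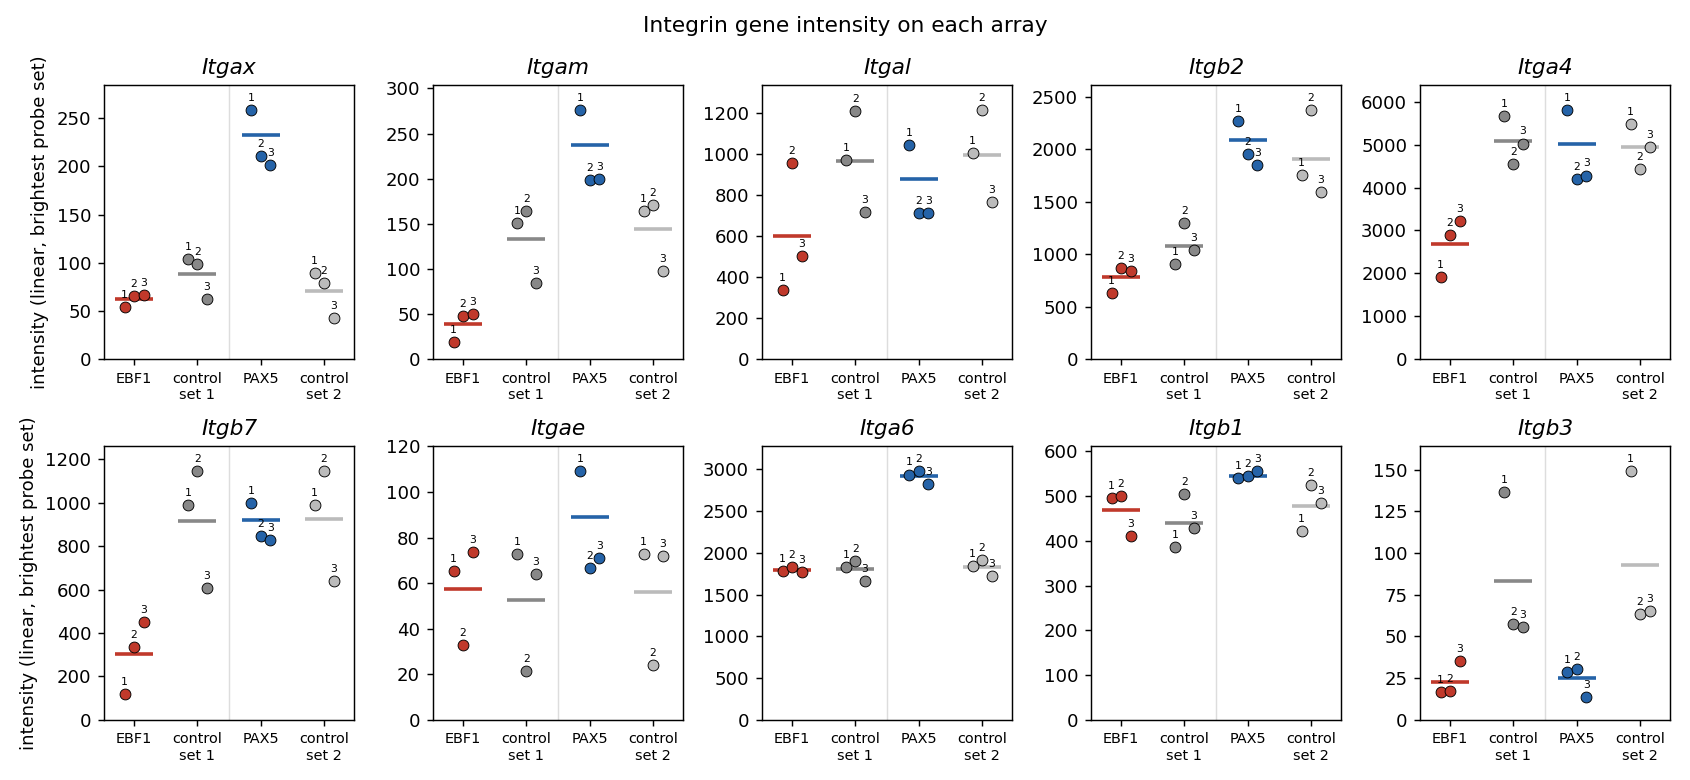
Intensity (linear scale) of the brightest probe set of each gene on every array; numbers mark the array, and bars the group mean, with PAX5 arrays 2 and 3 averaged first. Itgax and Itga6 stand higher on all PAX5 arrays than on those of control set 2, and Itgam, Itgb2, Itga4, Itgb7 and Itgb3 lower on all EBF1 arrays than on those of control set 1.

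Among the beta2 group, Itgax responded most clearly. It encodes CD11c, the alpha X chain best known from dendritic cells. Its 1 probe set, 1419128_at, read 259, 211 and 202 on PAX5 arrays 1 to 3, against 88.9, 79.1 and 42.8 on the arrays of control set 2. All PAX5 arrays lay above all controls, with means of 233 ± 37.1 (SD, n = 2) and 70.3 ± 24.3 (n = 3). The log2 change was 1.56 (SE 0.22, 95% interval 1.06 to 2.07), a 2.95-fold rise, with limma adjusted p = 0.016. With EBF1 the probe set read 54.4, 65.2 and 66.7, against 103.5, 98.7 and 62.2 in control set 1. Those groups overlapped, and the log2 change was -0.39 (SE 0.20, adjusted p = 0.5 by limma).

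The rise of Itgax rests on both PAX5 samples. Without PAX5 array 1 its log2 change was 1.41 (limma adjusted p = 0.266), and without PAX5 arrays 2 and 3 it was 1.71 (adjusted p = 0.0756). Either way 1 sample is left, assumed to vary like the other groups. Genes typical of dendritic cells were read beside it: 0 of 14 measured markers passed with PAX5 over all genes, and 3 had an unadjusted p under 0.05, of which 2 were higher and 1 lower. The 2 were Irf8, a factor of dendritic and B cells, at 5275, 3573 and 3393 with PAX5, against 1804, 955 and 863 in control set 2 (log2 change 1.89, adjusted p = 0.064), and the chemokine receptor Ccr7, at 1109, 693 and 667 with PAX5, against 209, 310.5 and 136 in control set 2 (1.99, 0.096). Neither overlapped its controls, and the lower one was Flt3 (-0.94, 0.22). These 3 were named after their values were seen. The summed intensity of the 14 was 12100 to 15780 with PAX5 and 10830 to 13390 in control set 2. That sum includes Irf8 and Ccr7, and the median log2 change of the 14 with PAX5 was -0.07. The dendritic factor Zbtb46 read 24.8 to 41.4 with PAX5 and 31.7 to 38.2 in control set 2, and the receptor Xcr1 2.38 to 11.5 with PAX5 and 1.07 to 7.80 in control set 2, near the lowest values of the arrays. The part of dendritic transcripts in the Itgax value was not tested. In bulk RNA, more cells of a type and more RNA per cell cannot be told apart.

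Itgam encodes CD11b, the alpha M chain of myeloid and natural killer cells. Its 1 probe set, 1422046_at, read 18.4, 47.7 and 50.3 with EBF1, against 151, 164 and 84.7 in control set 1. Every EBF1 array lay below every control. The log2 change was -1.46 (SE 0.30, 95% interval -2.14 to -0.78), a value that limma did not call over all genes (adjusted p = 0.12). With PAX5 it read 276, 198.9 and 199.9, against 164, 170 and 97.9 in control set 2, again without overlap but in the other direction. That change was 0.68 (SE 0.33) and did not pass (limma adjusted p = 0.59).

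Itgb2, the beta chain shared by CD11a, CD11b and CD11c, read 629, 863 and 844 with EBF1, against 904, 1292 and 1040 in control set 1. The EBF1 arrays were all lower, by -0.46 in log2 (SE 0.18), and limma gave adjusted p = 0.37. With PAX5 it read 2267, 1956 and 1847, against 1755, 2375 and 1592 in control set 2, with overlap and a difference of 0.14 in log2 (SE 0.20, adjusted p = 0.91 by limma). The higher Itgb2 values in set 2 are present in its controls too. Itgal, the CD11a chain of LFA-1, overlapped its controls in both comparisons. Its brighter probe set read 337, 957 and 504 with EBF1, against 974, 1211 and 716 in control set 1, and 1047, 715 and 713 with PAX5, against 1005, 1217 and 765 in control set 2. The log2 changes were -0.77 (SE 0.35) and -0.18 (SE 0.40), with limma adjusted p = 0.45 and 0.95. The dimmer Itgal probe set moved less, by -0.33 with EBF1 and -0.07 with PAX5.

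Itga4 and Itgb7, which pair as the gut-homing receptor of lymphocytes, were lower on every EBF1 array. Itga4 is the alpha4 chain. Its brightest probe set, 1436037_at, read 1917, 2899 and 3210 with EBF1, against 5672, 4550 and 5028 in control set 1. The log2 change was -0.95 (SE 0.21, 95% interval -1.43 to -0.47, limma adjusted p = 0.14). Of its other 4 probe sets, 3 also had all EBF1 arrays below all controls, with log2 changes of -1.04 to -1.30, and the dimmest, at 13.2 to 38.6 with EBF1, overlapped its controls. With PAX5 the brightest probe set read 5813, 4195 and 4281, against 5484, 4444 and 4937 in control set 2, which differ by 0.01 in log2 (SE 0.24, adjusted p = 1 by limma).

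Itgb7, the beta7 chain, had the lowest log2 change of the 10 genes with EBF1. Probe set 1418741_at read 117.3, 336.5 and 451.8 with EBF1, against 991, 1144 and 606 in control set 1. The log2 change was -1.68 (SE 0.43, 95% interval -2.66 to -0.70, limma adjusted p = 0.18), so the interval is wide. With PAX5 it read 999.5, 848 and 828, against 990, 1148 and 637 in control set 2, which differ by 0.03 in log2 (SE 0.48, adjusted p = 1 by limma). Itgae, the CD103 chain that pairs with beta7 and binds E-cadherin, was dim and overlapped its controls in both comparisons. It read 65.5, 33.0 and 73.8 with EBF1, against 72.6, 21.4 and 63.9 in control set 1, and 109, 66.5 and 71.2 with PAX5, against 72.9, 24.2 and 71.8 in control set 2. Its log2 changes were 0.15 (SE 0.35) and 0.60 (SE 0.40), with limma adjusted p = 0.93 and 0.74.

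Itga6 rose with PAX5 and stayed close to its controls with EBF1. It encodes CD49f, a laminin receptor chain of stem and progenitor cells. Probe set 1422445_at read 2939, 2986 and 2826 with PAX5, against 1847, 1920 and 1718 in control set 2, without overlap. The log2 change was 0.67 (SE 0.11, 95% interval 0.41 to 0.93), a 1.59-fold rise, with limma adjusted p = 0.038. The second probe set, 1422444_at, read 1176, 1147 and 1126 with PAX5, against 620, 726 and 737 in control set 2, and moved by 0.73 (SE 0.15). Over all 45037 probe sets limma gave them adjusted p = 0.062 and 0.12, so neither was called there, and 1 of the 23 probe sets, that of Itgax, was called higher (0.464% of all). With EBF1 0 of the 23 were called (0.0977% of all). With EBF1 the first probe set read 1778, 1827 and 1774, against 1834, 1907 and 1666 in control set 1, a log2 change of 0.00 (SE 0.10, 95% interval -0.24 to 0.23).

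The size of the Itga6 change was 0.63 to 0.71 over 18 alternatives, but its call was lost in 11 of them. Leaving out an EBF1 array, the filter on dim genes, each set fitted alone and the trended prior could not alter this size. With the replicate block the limma adjusted p was 0.0576, with each set fitted alone 0.107, and without any 1 of the control, EBF1 or PAX5 samples it lay between 0.0553 and 0.376. Itgb1, the beta1 chain that pairs with alpha4 and alpha6, moved little. Its brightest probe set, 1426918_at, read 495, 499.5 and 412 with EBF1, against 387, 504 and 429 in control set 1, and 540, 545 and 557 with PAX5, against 422, 524 and 485 in control set 2. The PAX5 arrays were all higher, yet the log2 change was 0.19 (SE 0.15, limma adjusted p = 0.78), and with EBF1 it was 0.09 (SE 0.13, adjusted p = 0.85). Of its 6 probe sets 3 averaged under 20 in control set 1 and carry little signal.

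Itgb3, the beta3 chain of platelets and of the vitronectin receptor, was lower on every array of both factors. Its brighter probe set, 1455257_at, read 16.4, 17.0 and 35.3 with EBF1, against 137, 57.4 and 55.3 in control set 1. With PAX5 it read 28.5, 30.5 and 13.7, against 149, 63.6 and 65.0 in control set 2. The log2 changes were -1.29 (SE 0.30) and -1.33 (SE 0.34), and neither passed (limma adjusted p = 0.16 and 0.19). The other probe set, at 8.18 to 32.8 in control set 1, overlapped in both comparisons. Itgb3 pairs with the platelet chain Itga2b, which read 154 to 188 with EBF1 and 170 to 204 in control set 1 (log2 change -0.07), and 162 to 206 with PAX5 and 185 to 229 in control set 2 (-0.19).

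**Figure D2:**
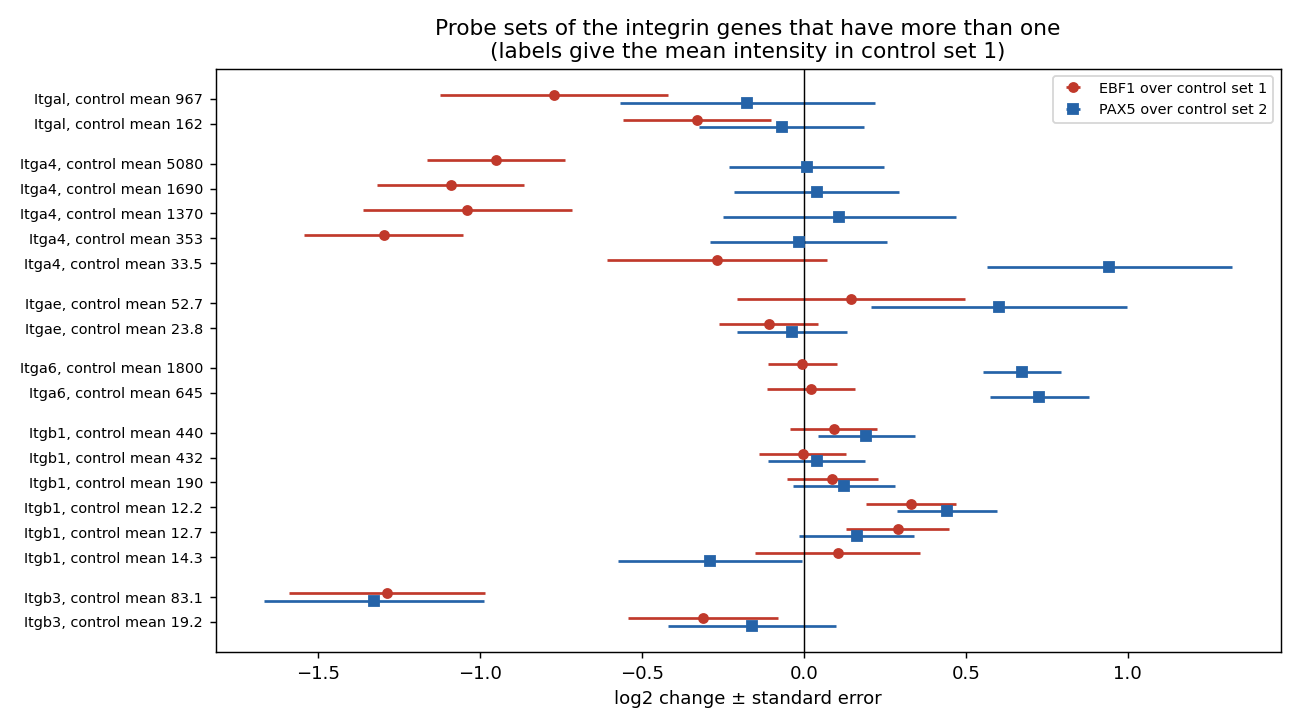
Log2 change ± standard error of every probe set of the 6 genes with more than 1, with EBF1 (red circles) and PAX5 (blue squares) over their own controls; labels give the mean intensity in control set 1. The brighter 4 of 5 Itga4 probe sets lie between -0.95 and -1.30 with EBF1, both Itga6 probe sets near 0.7 with PAX5, and dim probe sets go their own way.

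EBF1 array 3 held transcripts of mesenchymal stroma, the cell type of the OP9 feeder layer: the summed intensity of 18 stromal markers was 12060 there, 2970 and 1489 on EBF1 arrays 1 and 2, and 1222 to 2564 in control set 1. The brightest were Cxcl12 (3366), Bgn (2727) and Col1a2 (2018), and 0 of the 18 passed limma's test with EBF1, with 2 at unadjusted p under 0.05. Without that array Itgb7, Itgam and Itga4 fell with EBF1, with log2 changes of -2.05, -1.63 and -1.10 and limma adjusted p = 0.0489, 0.0493 and 0.0497, just inside the threshold. That makes 3 of 10 lower, where 0.945% of all genes were called lower in the same fit. Itgb3 stood at -1.50 (adjusted p = 0.0571). Markers of other cells were called lower in that fit too: 5 of 14 of natural killer and innate lymphoid cells (Klrd1, Nkg7, Gata3, Id2 and Zbtb16, with log2 changes of -1.32 to -2.29) and 2 of 16 myeloid ones (Adgre1, -2.55, and Fcgr3, -1.59), all named after their values were seen. The natural killer list did not move 1 way, since 1 of its 14 genes, Gzma, was called higher (log2 change 6.86). The list's summed intensity was 9445, 7512 and 5262 on EBF1 arrays 1 to 3, and 2726 to 3880 in control set 1. Most of the EBF1 sums was Gzma alone, at 8223, 6138 and 2877, against 61.7, 38.2 and 38.9 in control set 1. With all 3 EBF1 arrays the median log2 change of the 14 was -0.25. Levels of Itgam, Itga4, Itgb7 and Itgb3 were higher on EBF1 array 3 than on arrays 1 and 2, for Itgam by little (50.3 against 47.7 on array 2). Itgam, Itga4 and Itgb7 were lowest on EBF1 array 1 (18.4, 1917 and 117.3). Without array 1 their log2 changes were -1.155, -0.728 and -1.147 (limma adjusted p = 0.271, 0.33 and 0.306), so the size of these falls leans on that array. EBF1 array 3 also had the weakest B cell response, with a median deviation of 14 B cell markers from the controls of 1.92 in log2, against 3.44 and 2.96 on EBF1 arrays 1 and 2, and the highest myeloid sum, 3427, against 1901 and 1579. The part of stromal transcripts, of other cells or of a weaker response in these values was not tested. With all 12 arrays counted separately, Itgam and Itga4 also passed (adjusted p = 0.047 and 0.0467), as 2 of 10 lower, against 0.341% of all genes.

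**Figure D3:**
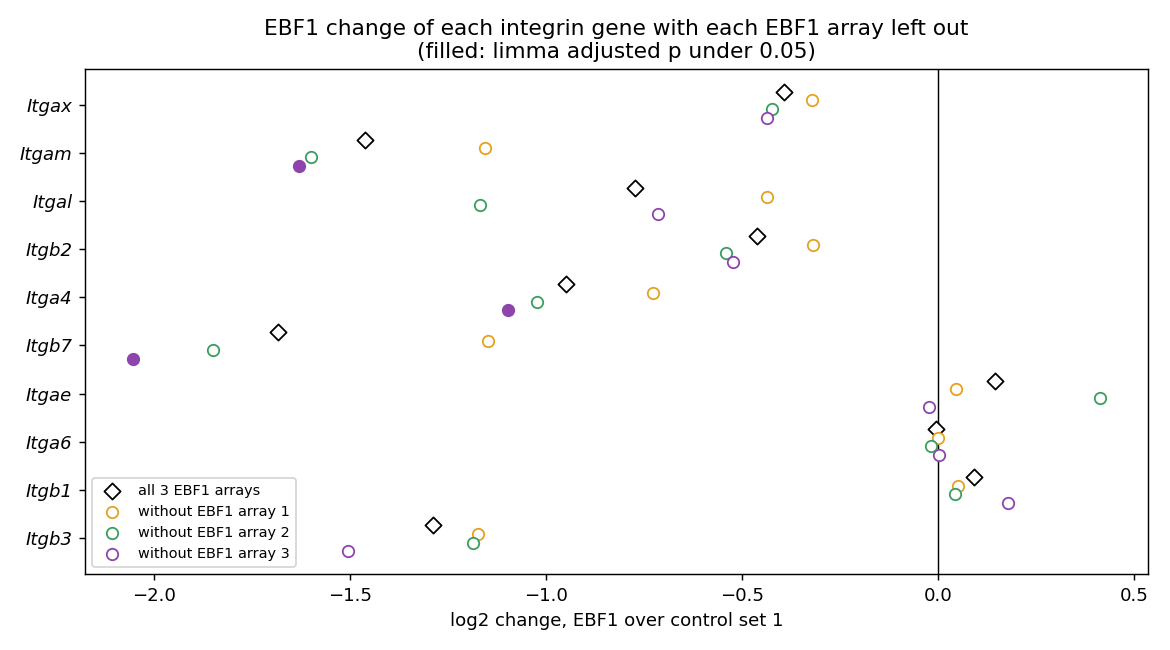
Log2 change of each gene with EBF1 over control set 1, with all 3 EBF1 arrays (diamonds) and with each left out in turn (circles); filled symbols have a limma adjusted p under 0.05. The only filled symbols are those of Itgam, Itga4 and Itgb7 without EBF1 array 3, at -1.63, -1.10 and -2.05.

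Groups that did not overlap were more frequent than calls. With EBF1 5 of 10 genes (Itgam, Itgb2, Itga4, Itgb7, Itgb3) had every array below every control, against 6.76% of all genes, and 0 had every array above (7.67%). With PAX5 4 of 10 (Itgax, Itgam, Itga6, Itgb1) had every array above every control, against 9.34%, and 1 (Itgb3) below, against 8.95%. PAX5 arrays 2 and 3 are counted as 1 sample, so these PAX5 shares rest on fewer samples than arrays. Myeloid markers were mixed with EBF1. The summed intensity of 16 measured markers was 1579 to 3427 with EBF1 and 4070 to 6236 in control set 1, with 0 past limma's test over all genes and 6 at unadjusted p under 0.05, of which 5 were lower and 1 (Csf1r, log2 change 0.28) higher, and the median log2 change of the 16 was -0.01. Most of the sum came from Fcgr3, Mpo and Adgre1, 7 to 8 of the 16 read under 20 on each of these arrays, and the granulocyte genes S100a8, S100a9 and Elane read under 30 on all arrays of set 1. With PAX5 the sum was 4561 to 5610, against 4865 to 6846 in control set 2, with 0 past the test and 2 at unadjusted p under 0.05. The part of myeloid transcripts in the Itgam values was not tested.

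The difference between the factors was tested directly for each gene. Itgax, Itgam and Itga6 were lower with EBF1 than with PAX5, each set against the controls, by limma over all genes: 3 of 10 lower and 0 higher, against 1.35% of all genes called lower, and 6 of 10 had an unadjusted p under 0.05 (17% of all genes). The EBF1 change minus the PAX5 change was -1.96 for Itgax (SE 0.22, 95% interval -2.46 to -1.45, adjusted p = 0.004), -2.14 for Itgam (SE 0.33, -2.90 to -1.38, 0.019) and -0.68 for Itga6 (SE 0.11, -0.94 to -0.42, 0.025). Itga4 (-0.96, adjusted p = 0.087), Itgb7 (-1.71, 0.12) and Itgb2 (-0.60, 0.18) were lower without passing. Itgb3 differed by 0.04 (95% interval -0.73 to 0.82), Itgb1 by -0.10 (-0.43 to 0.23), Itgal by -0.60 (-1.50 to 0.30) and Itgae by -0.46 (-1.36 to 0.45). Over all probe sets, 3 of 23 were called lower, against 0.77% of all 45037. They were those of Itgax and Itgam and the brighter one of Itga6. Without PAX5 array 1 all 3 gene calls were lost (adjusted p = 0.092, 0.272 and 0.272), and without PAX5 arrays 2 and 3 those of Itgam (0.073) and Itga6 (0.112). Itga6 was also lost without EBF1 array 1 (0.0832) or 2 (0.0723) and with a pseudocount of 4 (0.0501), and Itgam with all 12 arrays counted separately (0.0534).

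**Figure D4:**
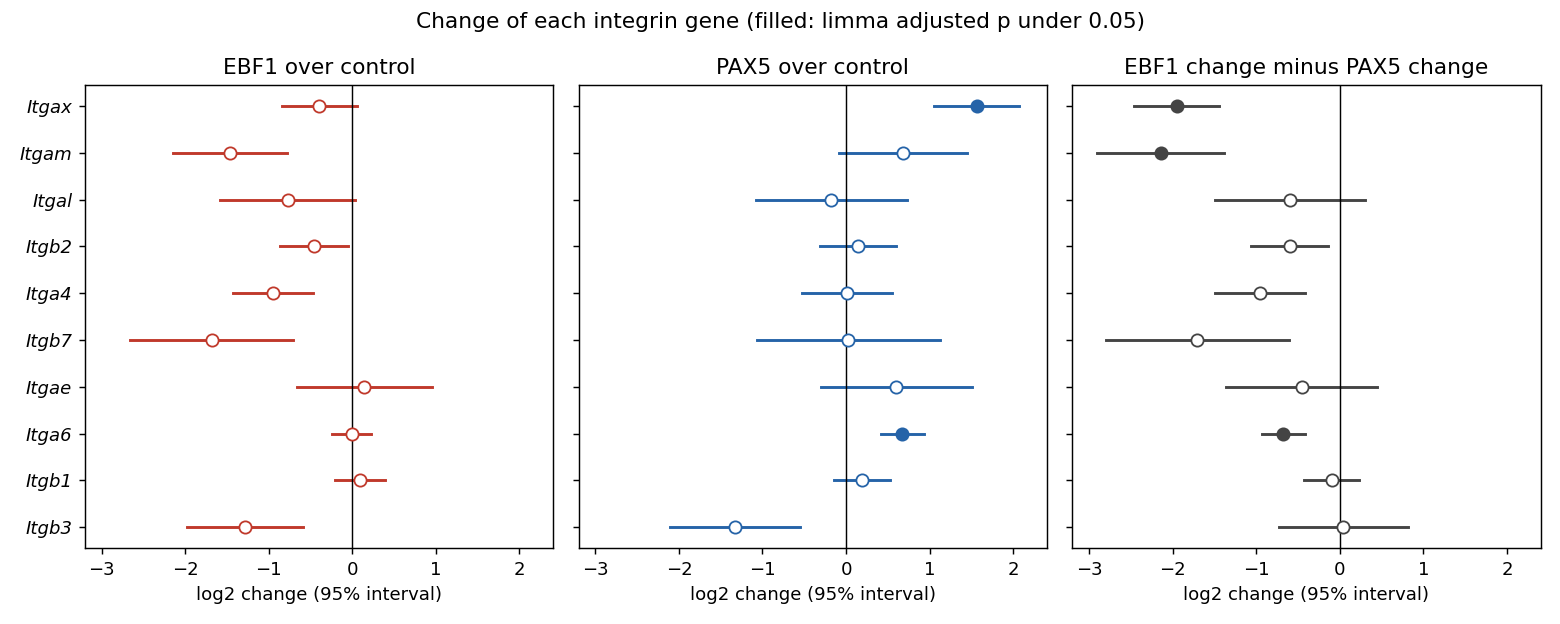
Log2 change with 95% interval of each gene for EBF1 over control, PAX5 over control, and the EBF1 change minus the PAX5 change; filled points have a limma adjusted p under 0.05. Filled points are Itgax and Itga6 with PAX5, and Itgax, Itgam and Itga6 for the difference.

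In order of fitted level, EBF1 cells were lowest, controls in between and PAX5 cells highest for Itgax, Itgam, Itgb2, Itga4, Itgb7 and Itga6. No share of all genes with this order is given, so it is not read as a trait of integrin genes. Small steps in this order are not settled: Itga6 with EBF1 (0.00), Itga4 with PAX5 (0.01) and Itgb7 with PAX5 (0.03) turned sign in 5, 5 and 6 of 18 alternatives. For Itgax and Itga6 the step to PAX5 passed the test and the step to EBF1 did not, and for Itgam neither step passed while the span did. For Itgb2, Itga4 and Itgb7 no step and no span passed. Among the genes most like Itgax over the 8 samples, by root-mean-square difference in log2 deviation from the control mean, were Zfp385a (0.18), Kifc3 (0.20), Lbh (0.21) and Ppp1r13b (0.23), and 169 genes lay within 0.5. All 4 passed with PAX5, with log2 changes of 1.17 to 1.59. They were chosen for likeness over samples that include those of PAX5, so this rise follows from the choice. For Itga6 they were Gstp1 (0.07), Sys1, Sertad2 (0.08 each) and Ddx54 (0.10), but 14259 genes lay within 0.5 of so small a change.

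Other parts of the integrin system mostly did not pass. Of 14 other integrin subunits measured, 0 were called by limma with EBF1 (0 at unadjusted p under 0.05) or with PAX5 (1), and the median log2 changes were -0.03 and 0.02. Most of the 14 were dim, which limits what could be called. In control set 1 Itgb8 read 2.81 to 11.6, Itga7 17.0 to 26.9, Itga1 19.3 to 29.7 and Itgb4 24.8 to 30.3. Itgav, the alpha V chain of vitronectin receptors, read 1057, 983 and 1450 with EBF1, against 1850, 1426 and 1295 in control set 1 (log2 change -0.39, adjusted p = 0.47). Of 23 ligands 0 were called with either factor, with 3 and 1 at unadjusted p under 0.05. Icam1, a ligand of the beta2 group, stood at -0.37 with EBF1 and 0.13 with PAX5, and Vcam1, the ligand of alpha4 chains, at 0.61 and -0.22. Fn1, fibronectin, read 502, 62.5 and 1962 with EBF1, against 344, 15.3 and 62.8 in control set 1, highest on the array with the most stromal transcript.

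Of 27 genes that activate integrins from inside the cell, 1 rose and 0 fell with PAX5 and 0 were called with EBF1 (10 and 9 at unadjusted p under 0.05), with medians of 0.22 and 0.05. The one that rose was Vav2, a guanine nucleotide exchange factor, which read 953, 712 and 733 with PAX5, against 244, 260 and 272 in control set 2 (log2 change 1.63, SE 0.28, limma adjusted p = 0.041). With EBF1 Vav2 stood at 1.15 (adjusted p = 0.14). Talin, Tln1, stood at -0.36 with EBF1 and 0.22 with PAX5, kindlin-3, Fermt3, at -0.11 and 0.22, and Rasgrp2, an exchange factor for Rap1, at 0.49 and 0.42, none called.

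Of 31 kinases and adhesion proteins that act downstream, 1 rose and 1 fell with PAX5 and 0 were called with EBF1 (6 and 11 at unadjusted p under 0.05). Tns3, an actin-binding tensin, rose by 0.96 in log2 with PAX5 (SE 0.14, limma adjusted p = 0.022), reading 2415, 1899 and 1911, against 1198, 1013 and 1091 in control set 2. Fcer1g, a signalling chain of Fc receptors, fell by 1.32 on the log2 scale (SE 0.19, adjusted p = 0.016), reading 1568, 2143 and 2069 with PAX5, against 4884, 4179 and 4649 in control set 2. In the difference, 2 of the 31 were lower with EBF1 than with PAX5, Tns3 (-0.93, adjusted p = 0.019) and the kinase Syk (-1.18, 0.0076), and 1 higher, the actinin Actn1 (1.77, 0.017). Of the 27 activators 1 was higher, Rasgrp1 (0.69, 0.038). Syk, Actn1 and Rasgrp1 were named after their values were seen. Of 11 membrane partners, among them the tetraspanins, 0 were called in any comparison (2 with EBF1, 3 with PAX5 and 3 for the difference at unadjusted p under 0.05).

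**Figure D5:**
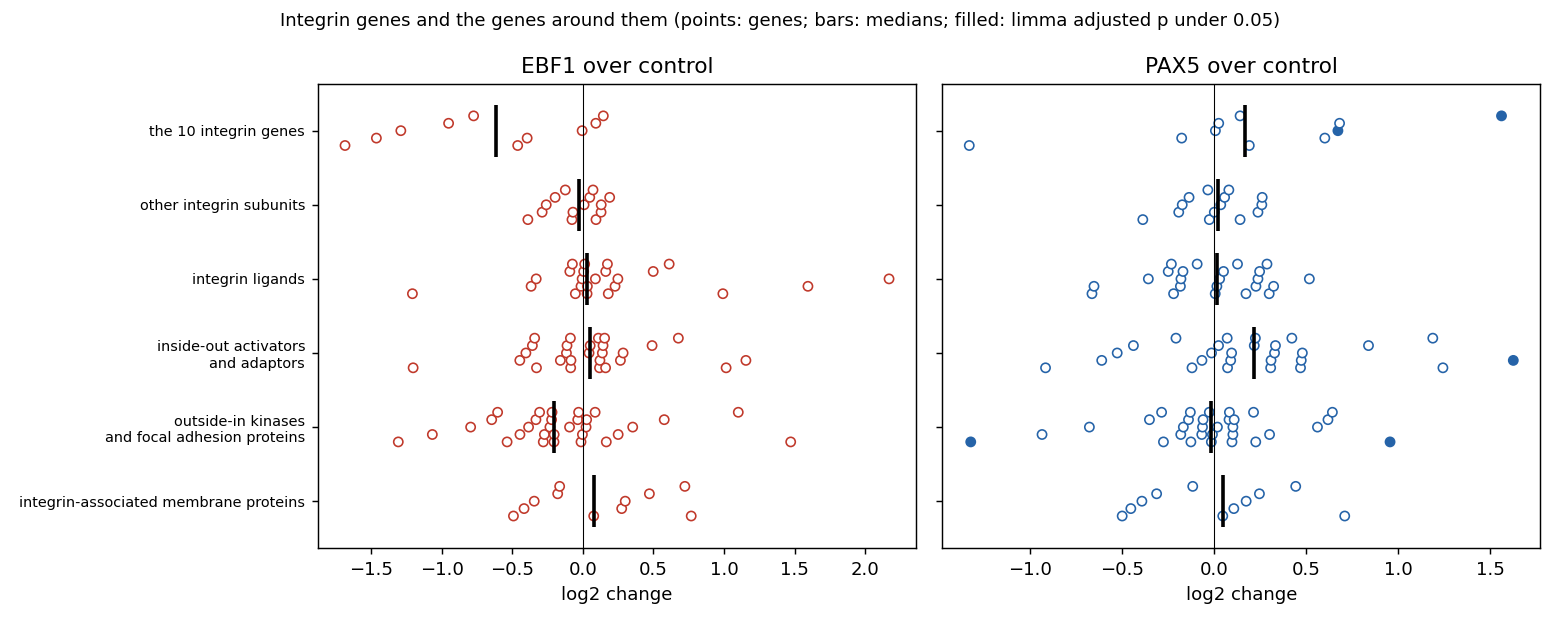
Log2 change of each gene (points) with EBF1 and with PAX5 over control, for the 10 integrin genes and 5 lists of related genes; bars are medians and filled points have a limma adjusted p under 0.05. The filled points are Itgax and Itga6, then Vav2, Tns3 and Fcer1g, all with PAX5.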

How the data were processed

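Per the labels, biotin-labelled cRNA was made from total RNA by the standard Affymetrix protocol, and the growth medium held 4% serum, SCF and Flt3 ligand at 10 ng/ml and IL-7 at 5 ng/ml. The authors deposited linear intensities, 1 per probe set and array. Their summarisation and scaling steps were not given in the sources used here. Medians ran from 55.1 to 60.6 (set 1) and from 65.3 to 68.9 (set 2), and each array lists 2.5% to 3.05% of its values at exactly 1.

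Of 45037 probe sets 34945 carried 1 symbol in the platform annotation, 932 several and 9160 none. The brightest probe set stood for its gene, without a filter. Values were used as log2(intensity + 16). For every gene, set 2 was shifted by the difference between the control means, same-numbered controls were averaged, and so were PAX5 arrays 2 and 3. One limma fit of 3 group means over 8 samples followed (5 residual and 3.53 prior degrees of freedom), with p-values adjusted by Benjamini-Hochberg across 18193 genes and called under 0.05; a second fit used all probe sets. The code was tested on simulated data. Versions were R 4.3.3, limma 3.58.1, the data.table package at 1.17.8, Python 3.11.15, pandas 2.3.3 and matplotlib 3.10.9.

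Equal numbers were taken to pair arrays. Over 12889 bright probe sets the deviations of equal-numbered arrays correlated at 0.345, 0.608 and 0.391 (control with EBF1) and 0.411, 0.194 and 0.333 (control with PAX5). Arrays of unequal number were not correlated in this way, so these values do not test the pairing. If PAX5 arrays 2 and 3 are 1 sample, they cannot both be partners of different control samples, so the pairing with PAX5 is uncertain. The fit is unpaired, and the pairing enters an alternative with a replicate block. The members, lists and tests were chosen with earlier results of these data known. The naming rule takes all 10 members, list genes past the threshold with either factor, 7 listed genes whatever their values, and the 4 genes most like each member called. Further alternatives changed the pseudocount, probe set choice, filter, normalization, array counting, variance prior and samples. Marker lists of dendritic, natural killer, T, B, megakaryocyte and mast cells had 1, 1, 0, 6, 0 and 0 genes called higher with EBF1 and 0, 0, 0, 3, 1 and 0 with PAX5, and 0 called lower by limma (5, 5, 2, 0, 0 and 1 lower at unadjusted p under 0.05 with EBF1, and 1, 2, 3, 0, 1 and 0 with PAX5). The B list includes Pax5, the transduced gene, whose brighter probe set rose by 5.67 in log2 with PAX5.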

Additional observations from a re-analysis of the deposited data

Results flagged for a closer look

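The responses of Itgax, Itgam and Itga6 differed between the factors by the test of the difference itself (limma over all genes). The EBF1 change minus the PAX5 change was -1.96, -2.14 and -0.68 in log2, with adjusted p = 0.004, 0.019 and 0.025. Once the offset between sets was removed, Itgax deviated from the control mean by -0.54, -0.33 and -0.31 with EBF1 and by 1.71 and 1.41 with PAX5. Itgam deviated by -2.07, -1.18 and -1.13 with EBF1 and 0.90 and 0.46 with PAX5, and Itga6 by -0.02, 0.02 and -0.02 with EBF1 and 0.68 and 0.67 with PAX5. These 3 genes were picked by the same test on the same samples, so the gaps between their values are no separate support. The Itgam changes had opposite signs, -1.46 with EBF1 and 0.68 with PAX5, and neither passed alone. Groups of 3 arrays are too small to test a single array as an outlier.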

How the results depend on the processing

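The Itgax rise with PAX5 kept its call in 15 of 17 alternatives (log2 change 1.15 to 1.72) and was not measured under the filter on dim genes, which also removed Itgae and Itgb3. Some of these alternatives could not alter its size, such as leaving out an EBF1 array, and some counted PAX5 arrays 2 and 3 separately. The cause of the shifts below was not tested. Of the 10 members, 0 were called with EBF1 in the fit reported and 2 with all arrays counted separately; 2 were called with PAX5, and 1 with a pseudocount of 4, the filter on dim genes, each set fitted alone or the replicate block; 3 were called for the difference, and 5 with PAX5 arrays 2 and 3 counted separately (Itga4 and Itgb7 added). Leaving out samples gave 0 to 3 members with EBF1, 0 to 1 with PAX5 and 0 to 3 for the difference. Over all genes, 40 were called with EBF1: 10 with a pseudocount of 64, 16 with the filter, 201 with all arrays separate, 88 with PAX5 arrays 2 and 3 separate, 11 with sets fitted alone, 90 with the trended prior, 5 with the replicate block, and 10 to 406 leaving out samples. With PAX5 159 were called: 357 with all arrays separate, 301 with PAX5 arrays 2 and 3 separate, 251 with the replicate block (where PAX5 arrays 2 and 3 count separately), 92 without PAX5 arrays 2 and 3, and 28 to 176 leaving out samples. For the difference 353 were called: 156 with all arrays separate, 879 with PAX5 arrays 2 and 3 separate, 534 with the trended prior, 167 without PAX5 arrays 2 and 3, and 55 to 575 leaving out samples. With either factor against its controls, the block changed no member's call but that of Itga6. For the difference, a block over 9 samples with PAX5 arrays 2 and 3 counted separately, chosen after seeing the data, called 1271 genes and the same 3 members, and sets fitted alone gave no value. Among members that passed neither before nor after, 24 small log2 changes turned sign. With the mean of probe sets these were Itga6 with EBF1 (0.009) and, for the difference, Itgb1 (0.038) and Itgb3 (-0.056); with quantile normalization Itgb7 with PAX5 (-0.005) and Itgb3 for the difference (-0.006); and with all arrays separate, PAX5 arrays separate or the block, Itga4 (-0.068) and Itgb7 (-0.016) with PAX5. Leaving out samples, values ran from -0.061 to 0.036 for Itga6 with EBF1, -0.245 to 0.413 for Itgae with EBF1, -0.22 to 0.083 for Itga4 with PAX5 (0.235 without PAX5 arrays 2 and 3), -0.217 to 0.2 for Itgb7 with PAX5, -0.446 to 0.096 for Itgal with PAX5 and -0.177 to 0.17 for Itgb3 in the difference (-0.089 without PAX5 arrays 2 and 3). Dim probe sets, such as those of Itgb3 and Itgae, limit what could be called.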

Other observations

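Several adhesion genes passed with EBF1 once EBF1 array 3, the array rich in stromal transcript, was left out. Among downstream adhesion proteins 2 rose and 2 fell in that fit: Parvb, a parvin of the integrin-linked kinase complex, rose by 2.19 in log2 (SE 0.22, limma adjusted p = 0.00234), Actn1 by 1.33 (0.019), and Zyx, a focal adhesion protein, fell by 1.64 (0.000604) and Tns1 fell by 1.69 (0.00981). Of the activators 2 rose and 0 fell, Vav2 by 1.37 (0.0304) and Cyth1, a cytohesin that can bind the beta2 tail, by 1.33 (0.0281). Of 23 ligands 0 rose and 1 fell, the junctional adhesion molecule Jam2, which fell by 1.55 on the log2 scale (0.00374). These genes were named after their values were seen, and 1.29% and 0.945% of all genes were called higher and lower in that fit.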
